A study of Homo sapiens with 12 samples.

Results

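HEK293T cells that had received dCas9 fused to the VP64 activation domain were compared with cells that had received dCas9 without a partner. The libraries were chosen by the transfected protein named in their labels, which gave 3 dCas9-VP64 and 3 dCas9 libraries, 6 of the 12 in the series. Both groups also received guide RNAs for 4 sites at IL1RN, so the controls carried the same guides and, as labelled, lacked only the fused domain. The other 6 libraries, 3 with dCas9-p300 core and 3 with dCas9-p300 D1399Y, entered only as part of the shared estimate of spread and as a reference level for IL1RN. Polyadenylated RNA was sequenced, and the question of the comparison was which RNAs differed at the guided gene and elsewhere. HEK293T is a line derived from human embryonic kidney cells and holds the SV40 large T antigen. The plasmids were delivered by lipid transfection, so a library averages over cells that did and did not take them up, and fewer responding cells cannot be told apart from a smaller response per cell. Per the labels, transfections were done in triplicate, and separate cultures are not described, so the p-values below measure the spread between these samples, which may be technical.

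dCas9 is a Cas9 protein that binds DNA where its guide RNA directs it and does not cut. VP64 is made of tandem copies of a short activation segment of VP16, a herpes simplex virus protein that recruits Mediator, general transcription factors such as TFIID and TFIIH, and histone acetyltransferases to a promoter. IL1RN encodes the interleukin 1 receptor antagonist, which occupies the interleukin 1 receptor without starting a signal. It is made by skin keratinocytes and by monocytes and macrophages, and its secreted and intracellular forms start from different promoters.

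The windows before the 3 IL1RN start sites in the RefSeq promoter table are shown because the guides were directed to this gene. They lie on the plus strand of GRCh38.p14 at chr2:113117721-113117970, chr2:113127239-113127488 and chr2:113127348-113127597, each window ending at the last base before a start site. The counts rest on hg19, and no count was assigned through these coordinates. Positions of the 4 guide sites were not given in the sources used here, and no site is marked. Capitals mark matches of the TATA element TATAAA on either strand.
IL1RN window 1: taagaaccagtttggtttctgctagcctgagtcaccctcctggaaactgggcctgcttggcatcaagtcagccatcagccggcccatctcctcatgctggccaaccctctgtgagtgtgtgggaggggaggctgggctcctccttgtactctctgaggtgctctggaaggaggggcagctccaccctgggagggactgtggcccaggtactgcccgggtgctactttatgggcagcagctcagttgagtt
IL1RN window 2: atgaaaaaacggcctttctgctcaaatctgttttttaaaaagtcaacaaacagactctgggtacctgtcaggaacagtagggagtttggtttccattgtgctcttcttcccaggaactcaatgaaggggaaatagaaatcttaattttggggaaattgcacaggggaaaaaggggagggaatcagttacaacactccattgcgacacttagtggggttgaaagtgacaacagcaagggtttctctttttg
IL1RN window 3: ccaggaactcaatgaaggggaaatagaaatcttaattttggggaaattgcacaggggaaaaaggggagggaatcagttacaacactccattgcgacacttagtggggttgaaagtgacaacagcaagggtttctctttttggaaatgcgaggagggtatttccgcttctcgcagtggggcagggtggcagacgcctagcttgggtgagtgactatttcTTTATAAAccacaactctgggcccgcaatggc
The first window has 59.6% GC and no match, and the second has 42.0% GC and no match. The third window overlaps the second and holds 2 overlapping matches, 1 on each strand, whose leftmost bases lie 32 and 30 bases before the start site. Of 35116 such windows of 250 bases in the RefSeq table, 10.7% hold a match on either strand, and a match or its absence is a description of the letters alone.

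Total counts ran from 2442960 to 4228316 over the dCas9 libraries and from 3873764 to 4104479 over the dCas9-VP64 libraries, and all 6 libraries belonged to the pool named CV41 in the labels. dCas9 replicate 3, the library of lowest total, stood apart. In it 1626 genes (11.1% of 14613) lay over 2-fold from the mean of the 12 libraries, against 15 to 253 genes in each of the other 11. Its deviation followed transcript length, with a median log2 ratio to the mean of 0.51 for genes under 1000 bases and -0.69 for genes over 5000 bases, whereas the other 5 libraries stayed between -0.12 and 0.11 in each length class. ACTB had 771 to 879 counts in all 6 libraries, and GAPDH had 1287 to 1438, so the counts of these abundant genes hardly varied with library total. Duplicate handling, which can limit the counts of abundant transcripts, was not given in the sources used here. Results are therefore given with dCas9 replicate 3 and without it.

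**Figure D1:**
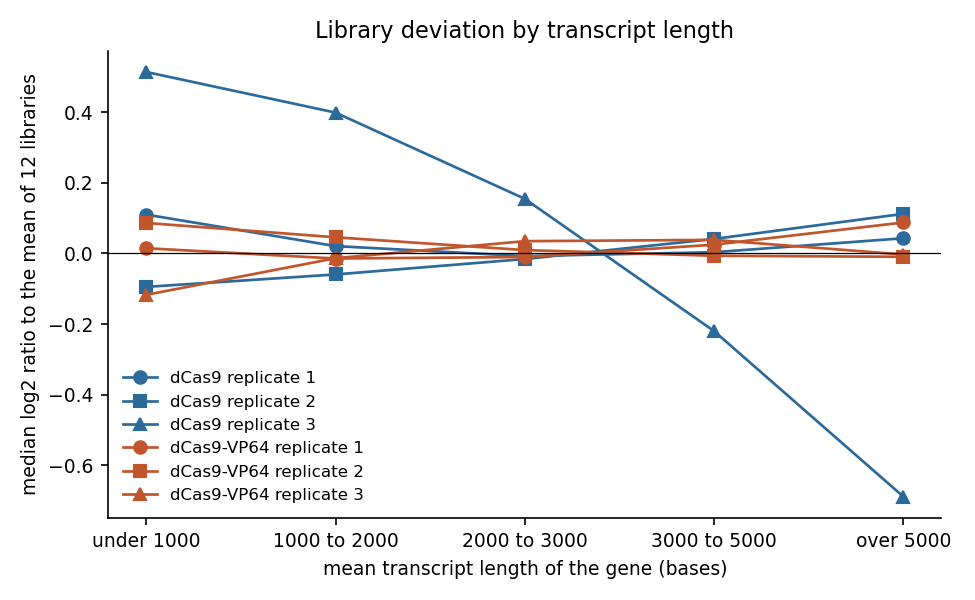
Median log2 ratio of each library to the mean of the 12 libraries (vertical axis) for genes in 5 classes of mean transcript length in bases (horizontal axis), for the 3 dCas9 libraries (blue) and the 3 dCas9-VP64 libraries (orange). dCas9 replicate 3 falls from 0.51 to -0.69 across the classes, while the other 5 libraries lie between -0.12 and 0.11.

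IL1RN RNA was higher in every dCas9-VP64 library than in any dCas9 library. The 3 dCas9 libraries held 15, 28 and 25 IL1RN counts, or 4.25, 6.70 and 9.26 CPM, edgeR's counts scaled to the TMM-adjusted library size. The 3 dCas9-VP64 libraries held 95, 76 and 123 counts, or 23.6, 19.3 and 31.3 CPM. The lowest dCas9-VP64 library was replicate 2 and the highest dCas9 library was replicate 3, the library that stood apart, and the groups did not overlap. Mean levels were 6.74 ± 2.51 CPM with dCas9 and 24.7 ± 6.07 CPM with dCas9-VP64 (SD, n = 3 each). The exact 95% Poisson interval of the lowest dCas9-VP64 library (15.2 to 24.2 CPM) lay above that of the highest dCas9 library (5.99 to 13.7 CPM). These intervals cover counting error only, and they are too narrow if a read was counted for several transcripts of the gene.

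The fitted difference was 3.73-fold (95% interval 2.52 to 5.53), a log2 fold change of 1.90 ± 0.26. IL1RN ranked first of 14613 genes by p and did not pass the adjusted threshold of 0.05 in edgeR's quasi-likelihood test (adjusted p = 0.0749). Without dCas9 replicate 3 the fold was 4.44 with a 95% interval of 2.98 to 6.61 (log2 2.15 ± 0.27), and it passed (adjusted p = 0.00832, edgeR). It also passed in DESeq2 with all libraries (log2 1.90 ± 0.29, adjusted p = 5.01e-07). Over 21 alternatives, which include each IL1RN transcript by itself, its adjusted p ran from 5.01e-07 (DESeq2) to 0.998. That highest value came from a fit of the summed gene, since the single transcripts reached 0.948 at most in edgeR. An exact permutation test of the 3 against 3 log2 levels, two-sided, gave p = 0.1, the smallest value that design allows.

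**Figure D2:**
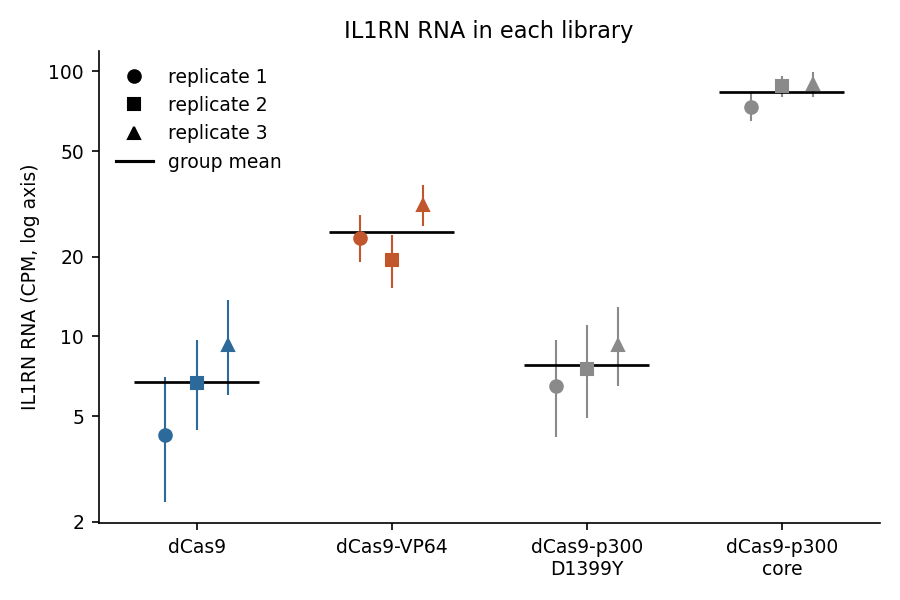
IL1RN level in CPM (log axis) in each of the 12 libraries, by group, with exact 95% Poisson intervals that cover counting error only and a line at each group mean. The 3 dCas9-VP64 libraries lie between 19.3 and 31.3 CPM, above the 3 dCas9 libraries at 4.25 to 9.26 CPM. The intervals are too narrow if a read was counted for several transcripts.

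The 4 IL1RN transcripts in the files stood at like values. NM_173843 had 3, 7 and 5 counts with dCas9 and 23, 18 and 31 with dCas9-VP64, a log2 fold change of 2.04 ± 0.37. NM_173842 had 4, 7 and 6 counts against 24, 20 and 33, a log2 fold change of 1.96 ± 0.34. For NM_000577 and NM_173841 the log2 fold changes were 1.85 ± 0.36 and 1.72 ± 0.37. In each of the 4 transcripts all dCas9-VP64 counts exceeded all dCas9 counts, and none passed over all transcripts (adjusted p from 0.658 to 0.948, edgeR). NM_173842 starts at the downstream promoter and the other 3 transcripts at the upstream one, and their values do not separate those promoters. Among 1450 genes with 2 transcripts of near-equal summed counts, within 3 percentage points of an equal share, the median chi-square per degree of freedom of the split between libraries was 0.446. Reads assigned to 1 transcript each at random would give about 1. How reads common to isoforms were counted was not given in the sources used here, and if a read entered more than 1 row the counting intervals of summed genes such as IL1RN are too narrow.

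The 2 other groups place this level. IL1RN stood at 7.78 ± 1.42 CPM with dCas9-p300 D1399Y and 83.6 ± 8.64 CPM with dCas9-p300 core (SD, n = 3 each). Each core library lay above every dCas9-VP64 library. The fitted difference between these groups was 3.38-fold, with a 95% interval of 2.44 to 4.68 (log2 1.76 ± 0.22, adjusted p = 0.0215 in edgeR). Within pool CV41, which lacks core replicate 3, the difference was log2 1.71 and did not pass (adjusted p = 0.398, edgeR). It also did not pass when dCas9-VP64 replicate 1 or 2 or any core library was left out, at adjusted p from 0.0725 to 0.329 in edgeR.

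Over all genes, 0 of 14613 passed in edgeR (0%), in either direction, and limma-voom also placed 0 past the threshold. DESeq2 placed 1 gene past it, IL1RN. At an unadjusted p under 0.05 limma-voom counted 487 genes and DESeq2 409. Without dCas9 replicate 3, edgeR placed 1 of 14764 genes past it (0.00677%), again IL1RN. Below the same unadjusted p, edgeR counted 449 genes (3.07%), of which 261 were higher (1.79%) and 188 lower (1.29%) with dCas9-VP64. Without dCas9 replicate 3 that count was 624 genes (4.23%), with 316 higher (2.14%) and 308 lower (2.09%). It was 1897 without dCas9 replicate 2, and 278 and 277 without dCas9-VP64 replicates 1 and 2. All dCas9-VP64 libraries lay above all dCas9 libraries for 467 genes (3.2%) and below them for 401 (2.74%). Without dCas9 replicate 3 the shares were 9.03% above and 8.83% below. The fitted log2 fold change was above 0 for 50.9% of genes and below 0 for 49.1%, or 49.8% and 50.2% without dCas9 replicate 3.

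The precision of the fit sets what could be seen beyond IL1RN. Fitted differences of at least 2-fold numbered 34 genes higher (0.233%) and 24 lower (0.164%), and 54 of these 58 genes had a mean level under 10 CPM. The 4 above that level were IL1RN, ZNF551 (log2 1.02 ± 0.28), the linker histone gene H1-2 (-1.01 ± 0.39) and DEPP1 (-1.03 ± 0.43), the last named after its values were seen. Without dCas9 replicate 1, H1-2 stood at -0.40 and DEPP1 at -0.44. No other gene was fitted at or above the fold of IL1RN with all libraries, and without dCas9 replicate 3 there was 1 such gene under 2 CPM and 1 from 2 to 10 CPM. For 12184 genes (83.4%) the 95% interval lay within a 2-fold change in both directions, and for 14555 genes (99.6%) it excluded a rise as large as that of IL1RN. These intervals are per gene and are not adjusted for the number of genes. The median standard error of a log2 fold change was 0.54 under 2 CPM, 0.35 from 2 to 10 CPM, 0.22 from 10 to 50 CPM and 0.15 over 200 CPM. Under 2 CPM the interval excluded a rise as large as that of IL1RN for 82.8% of 134 genes, and at 50 CPM or more for all 6366.

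**Figure D3:**
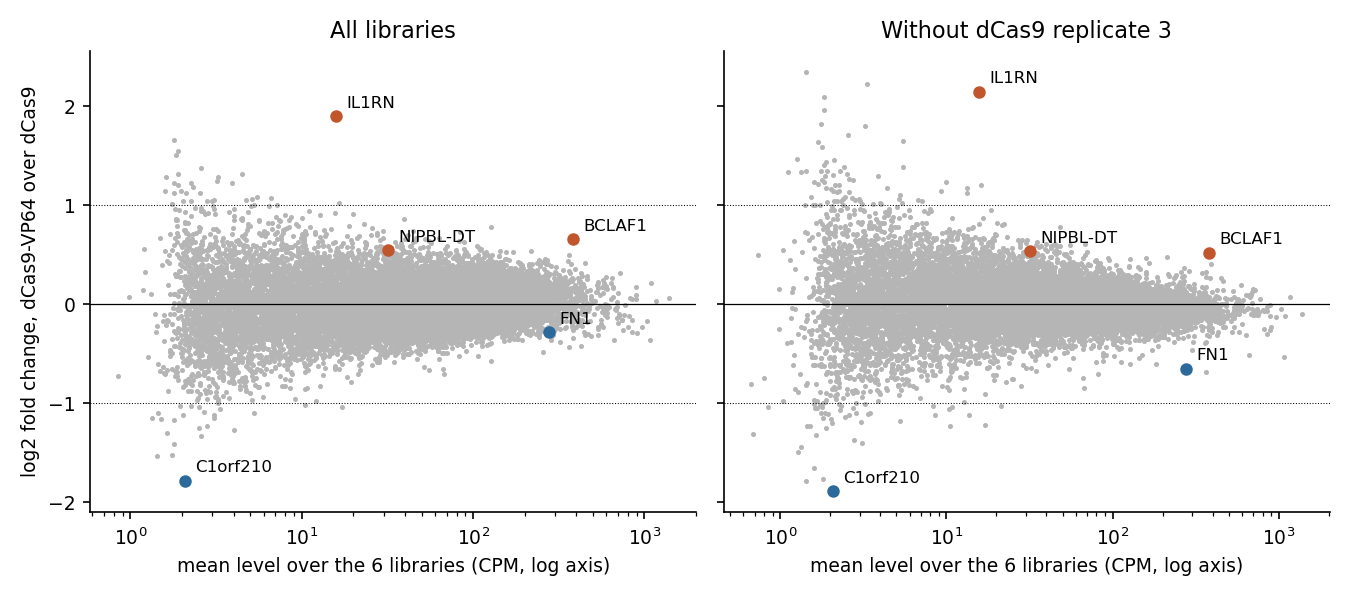
Log2 fold change of dCas9-VP64 over dCas9 (vertical axis) against the mean level over the 6 libraries in CPM (log axis) for each gene tested, with all libraries (left) and without dCas9 replicate 3 (right). Dotted lines mark 2-fold, and IL1RN lies at 1.90 and 2.15 with 5 genes of the text labelled.

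Of the 10 genes of smallest p that were higher with dCas9-VP64, IL1RN was the first and the other 9 were at an adjusted p of 0.929 each in edgeR. BCLAF1 encodes a regulator of transcription and splicing, and it stood at 279, 369 and 236 CPM with dCas9 and 482, 492 and 423 CPM with dCas9-VP64. Its groups did not overlap, with a log2 fold change of 0.66 ± 0.16, and 0.52 ± 0.13 without dCas9 replicate 3. NIPBL-DT, a noncoding RNA divergent from the cohesin loader gene NIPBL, stood at 25.5, 26.5 and 25.6 CPM against 39.2, 39.2 and 35.1 CPM. Replicates lay close together within each group, and the log2 fold change was 0.55 ± 0.14. Strand was not stated for the counting, so reads of NIPBL-DT and of its partner cannot be told apart where they overlap. CHDH, choline dehydrogenase of the mitochondrion, had 18.7, 19.8 and 17.4 CPM against 27.5, 27.7 and 28.3 CPM, a log2 fold change of 0.57 ± 0.16. OXCT1, which activates ketone bodies for oxidation, stood at log2 0.63 ± 0.18. The transmembrane protein gene TMEM185B stood at 0.59 ± 0.16 and RCBTB2 at 0.90 ± 0.25. The zinc finger genes ZNF621 and ZNF551 stood at 0.50 ± 0.14 and 1.02 ± 0.28. CDNF, a neurotrophic factor of the endoplasmic reticulum, was the one of lowest level, at 2.83, 3.59 and 4.07 CPM against 5.71, 6.11 and 9.16 CPM (log2 1.00 ± 0.28). In all 9 the groups did not overlap, against 3.2% of all genes, and the sign was kept without dCas9 replicate 3, both of which the choice by smallest p largely fixes. In 7 of the 9 the difference was smaller without it.

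On the lower side the 10 genes of smallest p also had an adjusted p of 0.929 each in edgeR. C1orf210 stood at 3.97, 3.11 and 2.59 CPM with dCas9 and 0.993, 1.02 and 0.764 CPM with dCas9-VP64, which are 14, 13 and 7 counts against 4, 4 and 3. Its groups did not overlap, and its log2 fold change of -1.78 ± 0.44 rests on those few reads. AGAP2-AS1, antisense to the GTPase regulator gene AGAP2, stood at 6.52, 7.65 and 9.26 CPM against 4.72, 3.31 and 4.07 CPM (log2 -0.94 ± 0.26), with strand again not stated. KYAT1, a kynurenine aminotransferase, had the values 80.8, 53.3 and 68.2 CPM against 44.7, 34.9 and 47.9 CPM (log2 -0.66 ± 0.20). RHD, the Rh blood group D antigen gene, stood at -1.27 ± 0.39, and its near-identical copy RHCE makes that count uncertain. ADAMTSL5, a secreted matrix protein gene, stood at -1.23 ± 0.38. The syntaxin gene STX11 stood at -0.85 ± 0.27 and the noncoding RNA LINC00924 at -0.95 ± 0.29. THAP3, NTAN1, an amidase of protein N termini, and NARF stood at -0.47 ± 0.15, -0.48 ± 0.16 and -0.52 ± 0.17. Of these 10 genes the groups overlapped for NARF alone, and all 10 kept their sign without dCas9 replicate 3. Here too the choice by p largely fixes both counts, and the share of all genes without overlap on this side was 2.74%. In 7 of the 10 the difference was smaller without dCas9 replicate 3.

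**Figure D4:**
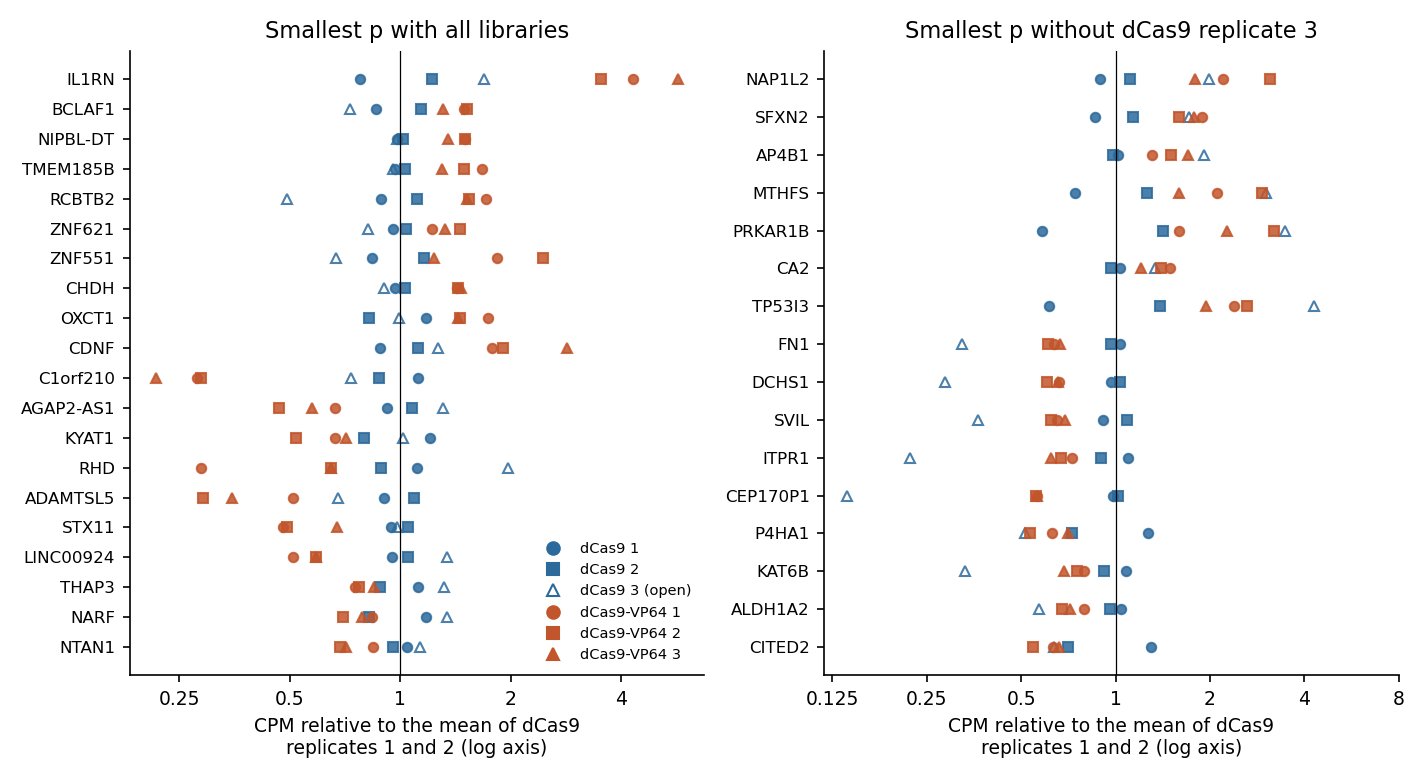
CPM of each library relative to the mean of dCas9 replicates 1 and 2 (log axis) for the genes of smallest p with all libraries (left) and the further genes of smallest p without dCas9 replicate 3 (right), with dCas9 in blue and dCas9-VP64 in orange. The open triangle, dCas9 replicate 3, lies below all 3 dCas9-VP64 libraries for 8 of the 9 lower genes on the right.

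Leaving out dCas9 replicate 3 brought forward 16 further genes, and their adjusted p was 0.141 for FN1 and 0.997 for the others (edgeR). FN1, the matrix protein fibronectin, stood at 407, 379 and 127 CPM with dCas9 and 250, 240 and 262 CPM with dCas9-VP64. dCas9 replicates 1 and 2 lay above all dCas9-VP64 libraries and replicate 3 below them. The log2 fold change was -0.65 ± 0.11 without replicate 3 and -0.28 ± 0.29 with it. The protocadherin gene DCHS1 went from 41.4, 44.2 and 12.2 CPM to 28.3, 26.0 and 28.0 CPM, at log2 -0.64 ± 0.14 without replicate 3 and -0.28 ± 0.31 with it. The actin-binding protein gene SVIL stood at -0.61 ± 0.15, the calcium channel gene ITPR1 at -0.57 ± 0.14 and the acetyltransferase gene KAT6B at -0.43 ± 0.11 without that library. With it they stood at -0.29 ± 0.27, -0.15 ± 0.36 and -0.073 ± 0.28. The mean transcript length of these 3 genes was 7158, 9823 and 7848 bases, in the class where dCas9 replicate 3 was low. P4HA1, a collagen prolyl hydroxylase, stood at -0.68 ± 0.18, ALDH1A2, which makes retinoic acid, at -0.46 ± 0.12 and CITED2, a partner of p300 and CBP, at -0.70 ± 0.20. Their mean transcript lengths of 2830.5, 3141 and 1977 bases lay outside that class. With all libraries their log2 values were -0.43 ± 0.24, -0.24 ± 0.19 and -0.53 ± 0.22. P4HA1 stood at 636, 363 and 257 CPM with dCas9 and 312, 267 and 352 CPM with dCas9-VP64. CITED2 stood at 143, 78.0 and 70.4 CPM against 69.5, 60.1 and 72.8 CPM. For both, dCas9 replicate 1 was the highest library. As single libraries were left out, P4HA1 ran from -0.68 to -0.015 and CITED2 from -0.70 to -0.16. CEP170P1 stood at -0.83 ± 0.21, or -0.40 ± 0.42 with all libraries, and as a processed copy of CEP170 its count is uncertain.

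On the higher side without dCas9 replicate 3 the difference was log2 1.23 ± 0.29 for the nucleosome assembly protein gene NAP1L2 and 0.80 ± 0.19 for the mitochondrial carrier gene SFXN2. With all libraries these values were 0.87 ± 0.30 and 0.52 ± 0.22. TP53I3, a p53-induced oxidoreductase, stood at 3.68, 8.37 and 25.9 CPM with dCas9 and 14.4, 15.8 and 11.7 CPM with dCas9-VP64. Here replicate 3 was the highest of the 6 libraries, and the log2 fold change was 1.18 ± 0.34 without it and 0.20 ± 0.48 with it. PRKAR1B, a regulatory subunit of protein kinase A, stood at 1.20 ± 0.34 and the folate enzyme gene MTHFS at 1.12 ± 0.30 without replicate 3. With it they stood at 0.41 ± 0.44 and 0.45 ± 0.38. The adaptor subunit gene AP4B1 and the carbonic anhydrase gene CA2 stood at 0.59 ± 0.16 and 0.45 ± 0.13 without replicate 3. With it they stood at 0.22 ± 0.22 and 0.30 ± 0.15. Among these 7 higher genes dCas9 replicate 3 lay above all dCas9-VP64 libraries for 4 and within their range for 3.

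The product of IL1RN acts in the interleukin 1 family, and its other members showed no call. Of the 12 ligands and antagonists listed, IL1RN and IL18BP were tested, and 7 had no read in any of the 6 libraries, IL1B among them, while IL1A had 1 read. IL18BP, which binds interleukin 18, stood at 3.40, 3.59 and 0 CPM with dCas9 and 1.99, 1.78 and 3.05 CPM with dCas9-VP64 (log2 -0.15 ± 0.61). Of the receptors 4 of 9 were tested. IL1R1, the signalling receptor, stood at 3.12, 3.11 and 1.48 CPM against 1.24, 2.04 and 2.29 CPM (log2 -0.51 ± 0.49). Its co-receptor gene IL1RAP stood at 32.9, 37.1 and 5.19 CPM against 31.5, 25.7 and 26.5 CPM, with dCas9 replicate 3 far below the other 5. Its log2 fold change was 0.12 ± 0.45 with that library and -0.33 ± 0.27 without it. IL18R1 and the inhibitory receptor gene SIGIRR stood at 0.19 ± 0.27 and -0.07 ± 0.25. All 18 downstream signalling proteins listed were tested, 12 of them above 0, against 50.9% of all genes, with a median log2 of 0.03 beside 0.00 over all genes. Without dCas9 replicate 3, 7 of the 18 were above 0, with a median of -0.02. Among them the inhibitory kinase gene IRAK3 stood at 0.53 ± 0.36 and the adaptor ligase gene TRAF6 at 0.20 ± 0.19, or 0.46 ± 0.40 and 0.0059 ± 0.15 without dCas9 replicate 3.

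The genes around IL1RN on chromosome 2 were measured for a difference beyond the guided gene. Of 22 listed, 21 were in the files, 10 were tested and 7, all of the interleukin 1 cluster, had no read in the 6 libraries. None of the 10 had an unadjusted p under 0.05, against 3.07% of all genes. Of the 10, 8 were above 0, with a median log2 of 0.12 that became 0.03 without dCas9 replicate 3 and 0.25 without dCas9 replicate 2. PSD4, the gene next to IL1RN, named for its place after its values were seen, stood at 1.70, 10.0 and 7.78 CPM with dCas9 and 6.20, 5.34 and 8.40 CPM with dCas9-VP64 (log2 0.02 ± 0.46). Its dCas9 libraries spanned all 3 dCas9-VP64 libraries. The polymerase subunit gene POLR1B stood at log2 0.21 ± 0.17 and 0.02 ± 0.12 without dCas9 replicate 3, and the transporter gene SLC35F5 at 0.28 ± 0.24 and 0.03 ± 0.18. TTL, which adds tyrosine to tubulin, stood at 0.12 ± 0.12 and CHCHD5 at -0.17 ± 0.25. Genes that the study targeted elsewhere had no guides in these libraries. Of 7 listed only POU5F1 was tested, at 6.52, 5.26 and 10.4 CPM against 4.72, 4.58 and 5.09 CPM (log2 -0.58 ± 0.28, and -0.29 ± 0.28 without dCas9 replicate 3). MYOD1 had 3, 5 and 3 counts against 6, 5 and 8, and HBG1, HBG2, HBD and HBB had none.

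The complexes that VP16-type domains contact were described as sets of genes. None of their members passed the adjusted threshold. All 31 Mediator subunits listed were tested, 13 above 0 and 18 below, with a median log2 of -0.02, and 1 of the 31 had an unadjusted p under 0.05, near the 3.07% of all genes. That gene was MED17, in the Mediator head, at 35.4, 40.9 and 29.3 CPM with dCas9 and 51.6, 48.9 and 40.2 CPM with dCas9-VP64. Its lowest dCas9-VP64 library lay just under its highest dCas9 library (log2 0.41 ± 0.16, and 0.29 ± 0.15 without dCas9 replicate 3). MED12, of the kinase module, stood at 80.8, 105 and 34.8 CPM against 108, 104 and 106 CPM, at log2 0.52 ± 0.26 with dCas9 replicate 3 and 0.19 ± 0.13 without it. Of the 14 TFIID subunits 6 were above 0 and 8 below, with a median of -0.02. The largest subunit TAF1 stood at 0.36 ± 0.21, and 0.14 ± 0.16 without dCas9 replicate 3. The histone-fold subunits TAF11 and TAF12 stood at -0.16 ± 0.12 and -0.19 ± 0.15, or -0.066 ± 0.11 and -0.060 ± 0.14 without it. The 10 TFIIH subunits had 5 above 0 and a median of 0.02, or 9 above 0 and 0.06 without dCas9 replicate 3. GTF2H3 stood at 51.0, 57.2 and 31.5 CPM against 69.2, 69.0 and 57.8 CPM, groups that did not overlap, at log2 0.48 ± 0.18 with dCas9 replicate 3 and 0.27 ± 0.13 without it.

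Histone acetyltransferases, 13 tested with 8 above 0, had a median log2 of 0.12 that became -0.04 without dCas9 replicate 3 and 0.38 without dCas9 replicate 2. In dCas9 replicate 3 their median log2 ratio to the 12-library mean was -1.16. EP300 and CREBBP, the genes of p300 and CBP, stood at 0.28 ± 0.26 and 0.22 ± 0.20 with all libraries and at -0.04 ± 0.13 and 0.01 ± 0.15 without that library. The 11 histone deacetylases had a median of -0.08, and 0.03 without it. Among them HDAC9 stood at 2.27, 4.30 and 0.741 CPM with dCas9 and 6.95, 7.38 and 5.35 CPM with dCas9-VP64. Its groups did not overlap, at log2 1.31 ± 0.46 and 0.96 ± 0.42 without dCas9 replicate 3, and it did not pass (adjusted p = 0.929 and 0.997, edgeR).

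Splicing factors are described without BCLAF1, which had been put in the list with its result known. Of the 28 other members 18 were above 0, with a median log2 of 0.06, and 2 were higher at an unadjusted p under 0.05, against 1.79% of all genes. Without dCas9 replicate 3, 5 members were higher at that p, against 2.14%, and the median was 0.07. Without dCas9 replicate 2 the median was -0.0086, and it was -0.02 once length and GC content were offset. SRSF1, an SR protein that promotes exon inclusion, stood at 279, 382 and 365 CPM with dCas9 and 434, 485 and 399 CPM with dCas9-VP64 (log2 0.36 ± 0.14, and 0.41 ± 0.14 without dCas9 replicate 3). SRSF6, another SR protein, stood at 153, 193 and 207 CPM against 221, 269 and 232 CPM (log2 0.39 ± 0.15, and 0.48 ± 0.15). For both the groups did not overlap, with dCas9 replicate 1 lowest, and without that library the log2 values were 0.22 and 0.25. SRSF10 stood at 0.13 ± 0.12. Nuclear long noncoding RNAs and snoRNA hosts had 6 of 20 above 0 and a median of -0.17, which became -0.03 without dCas9 replicate 3 and -0.28 without dCas9 replicate 2. Among the 6 was NIPBL-DT, which had been put in that list with its result known. SNHG3, a snoRNA host, stood at 60.4, 51.9 and 61.1 CPM against 42.9, 41.7 and 45.1 CPM (log2 -0.42 ± 0.16), and TUG1 stood at 0.45 ± 0.19, or 0.28 ± 0.15 without dCas9 replicate 3.

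Several lists of abundant or stress-linked genes sat below 0, and their medians moved as single libraries were left out. Of 78 cytosolic ribosomal protein genes, 1 was above 0, and the median log2 of -0.23 became -0.07 with 7 above 0 without dCas9 replicate 3, and -0.36 without dCas9 replicate 2. Their median ratio to the 12-library mean was 0.47 in dCas9 replicate 3, 0.14 and -0.11 in dCas9 replicates 1 and 2, and -0.01, 0.03 and -0.17 in the dCas9-VP64 libraries. RPL28, of the large subunit, stood at 273, 261 and 319 CPM against 252, 237 and 228 CPM (log2 -0.25 ± 0.13) and RPS24, of the small subunit, at -0.32 ± 0.17, or -0.16 ± 0.12 and -0.13 ± 0.13 without dCas9 replicate 3. Of 20 abundant housekeeping genes 2 were above 0, at a median of -0.17, with EEF2, the translation factor, at -0.23 ± 0.14 and GAPDH at -0.23 ± 0.15. The median became -0.03 without dCas9 replicate 3, where EEF2 stood at -0.14 ± 0.13 and GAPDH at -0.074 ± 0.12, and -0.29 without dCas9 replicate 2. The unfolded protein response had 2 of 19 above 0 and a median of -0.18 (-0.03 without dCas9 replicate 3), with the stress factor DDIT3 at 58.1, 67.0 and 102 CPM against 35.7, 66.4 and 51.9 CPM. Among 15 histone genes 3 were above 0, at a median of -0.23 (-0.09 without it, -0.36 without dCas9 replicate 2).

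Hypoxia targets and glycolytic enzymes were highest in dCas9 replicate 1. Of 27 members 4 were above 0, the median log2 was -0.22, and their median ratio was 0.42 in dCas9 replicate 1 and 0.07 in replicate 3. The median was -0.11 without dCas9 replicate 1, -0.40 without replicate 2 and -0.24 without replicate 3. ALDOA, an enzyme of glycolysis, stood at 544, 361 and 562 CPM with dCas9 and 377, 341 and 374 CPM with dCas9-VP64 (log2 -0.42 ± 0.17), so dCas9 replicate 2 lay within the dCas9-VP64 range. ENO2, an enolase, stood at -0.29 ± 0.17. Of 24 immediate early genes 4 were above 0, and the median of -0.24 became -0.06 without dCas9 replicate 1 and -0.11 without replicate 3. JUNB, an AP-1 subunit, stood at 24.1, 19.6 and 36.3 CPM against 17.1, 16.8 and 21.1 CPM. BTG2, an antiproliferative gene, went the other way, at 40.0, 29.7 and 42.2 CPM against 56.8, 40.2 and 47.9 CPM (log2 0.38 ± 0.18). Of 14 heat shock proteins 2 were above 0, at a median of -0.11 (-0.27 without dCas9 replicate 2, -0.04 without dCas9-VP64 replicate 3). The chaperone genes HSPA1A and HSPA1B, near-identical copies whose separate counts are uncertain, stood at -0.65 ± 0.36 and -0.57 ± 0.30. HSPA1A ran from 40.4 to 134 CPM within dCas9 alone, with replicate 1 highest. Of 23 cholesterol synthesis genes 3 were above 0, at a median of -0.16 (-0.12 without dCas9 replicate 3, -0.25 without dCas9-VP64 replicate 3). DHCR7, the last enzyme before cholesterol, stood at 132, 128 and 120 CPM against 111, 91.9 and 117 CPM, groups that did not overlap (log2 -0.25 ± 0.13). The part of single libraries in these medians was not tested.

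**Figure D5:**
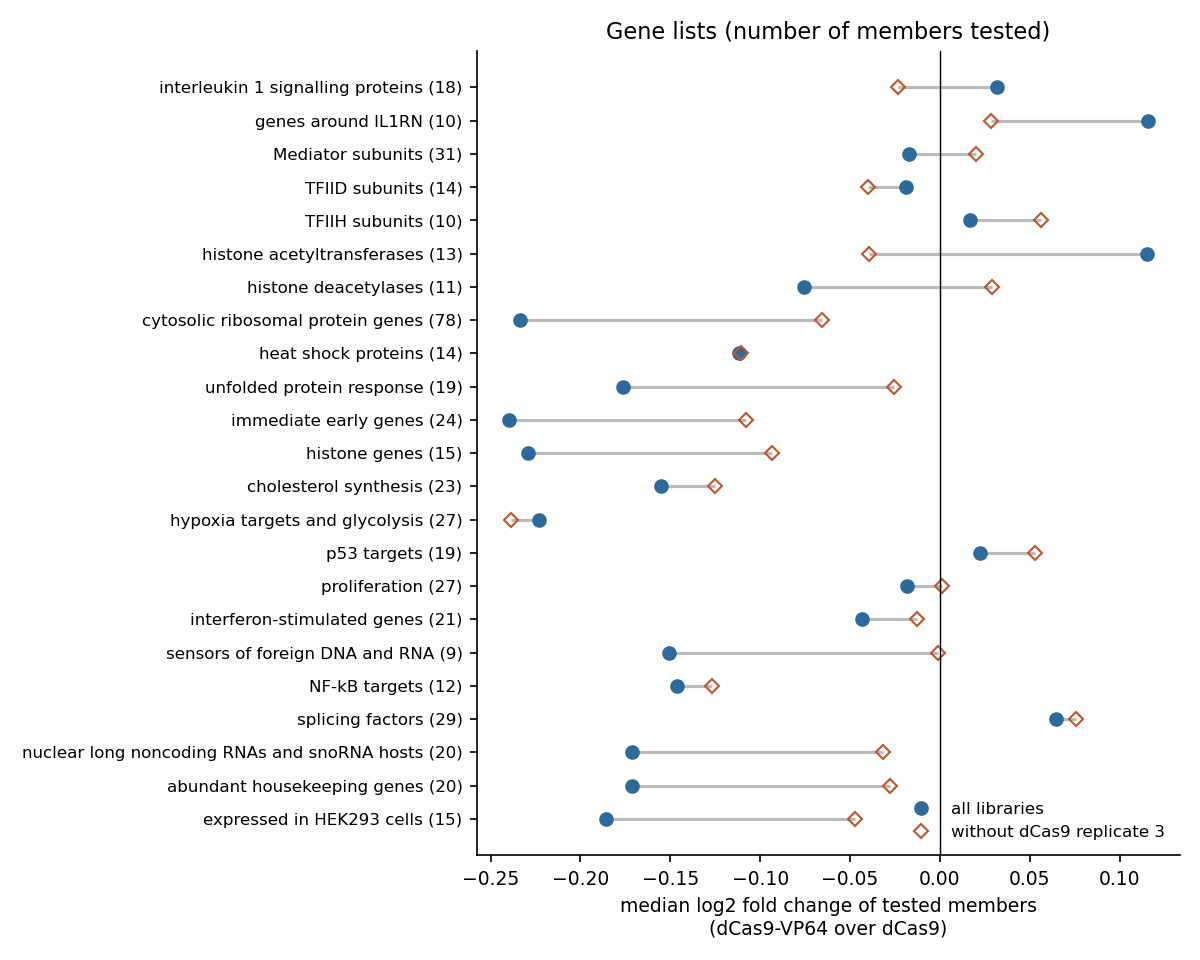
Median log2 fold change of dCas9-VP64 over dCas9 (horizontal axis) for gene lists with at least 9 members tested, with all libraries (filled circles) and without dCas9 replicate 3 (open diamonds), the number of members tested in brackets and a line at 0. The ribosomal list moves from -0.23 to -0.07, and the hypoxia list stays at -0.22 and -0.24.

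Lists of growth and of innate defence genes had medians between -0.15 and 0.02. Targets of p53, whose protein is bound by large T antigen in these cells, had 10 of 19 above 0 and a median log2 of 0.02, or -0.06 without dCas9 replicate 2 and 0.13 without dCas9-VP64 replicate 3. Of 27 proliferation genes 13 were above 0, at a median of -0.02. Transfected plasmid can engage sensors of foreign DNA, and both groups received plasmid. Sensors of foreign DNA and RNA had 2 of 9 above 0 and a median of -0.15 that became -0.00 without dCas9 replicate 3 and -0.35 without dCas9 replicate 2. Of 21 interferon-stimulated genes 9 were above 0, at a median of -0.04 (-0.22 without dCas9 replicate 1). IRF9, a subunit of the interferon-responsive factor ISGF3, stood at 3.97, 5.74 and 7.78 CPM against 3.72, 2.80 and 3.82 CPM. Its log2 fold change was -0.73 ± 0.31, and -0.50 ± 0.33 without dCas9 replicate 3. Its groups did not overlap in CPM, at 3.97 against 3.82 CPM. Its counts of 14, 24 and 21 against 15, 11 and 15 did overlap. NF-kB targets had 4 of 12 above 0 and a median of -0.15 (-0.03 without dCas9-VP64 replicate 1, -0.26 without dCas9-VP64 replicate 3). NFKB2, the gene of the p100 precursor, stood at 84.2, 65.8 and 86.7 CPM against 53.4, 52.7 and 62.4 CPM. Its groups did not overlap (log2 -0.49 ± 0.17, and -0.41 ± 0.16 without dCas9 replicate 3), and it did not pass (adjusted p = 0.929, edgeR).

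Markers of the line and of other cell types were read in the same libraries. All 15 genes known to be expressed in HEK293 cells were tested, with summed levels of 1370 to 1848 CPM over the dCas9 libraries and 1422 to 1590 CPM over the dCas9-VP64 libraries. The libraries came from HEK293T cells, and lists for keratinocytes, blood cells, endothelium and fibroblasts were read only for comparison. The keratinocyte genes KRT5, KRT14, KRT1 and IVL had no read in any of the 6 libraries, and the summed level of that list was 46.2 to 64.0 CPM with dCas9 and 47.3 to 51.9 CPM with dCas9-VP64. Of the blood cell list CD3E, MS4A1, TYROBP, S100A8 and S100A9 had no read, and its summed level was 15.8 to 22.6 CPM against 13.6 to 17.8 CPM. CD68, a lysosomal protein gene of that list, stood at 5.10, 3.11 and 4.07 CPM against 2.23, 1.53 and 2.55 CPM, groups that did not overlap (log2 -0.94 ± 0.35). The endothelial list had a summed level of 39.3 to 83.5 CPM against 59.5 to 77.4 CPM. It was led by FLT1, a receptor for vascular endothelial growth factor, with 665 counts in all with dCas9 and 771 with dCas9-VP64, and TIE1 had no read. The fibroblast list had 26.6 to 41.1 CPM against 30.8 to 35.4 CPM. It was led by the collagen gene COL1A1 with 172 counts against 182, and COL1A2, THY1 and FAP had no read. The RNA of the transfected proteins was not analysed here.

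Genes under the count filter were searched for reads on 1 side alone. Of 9782 features not tested, 4674 had no read in the 6 libraries, 718 had reads only with dCas9-VP64 and 607 only with dCas9. Total counts were 11925145 over the dCas9-VP64 libraries and 10304866 over the dCas9 libraries, and the part of depth was not tested. A count of 0 allows up to 3 counts, or 0.288 CPM over the pooled dCas9 libraries and 0.252 CPM over the pooled dCas9-VP64 libraries. CFAP52, a gene of motile cilia, had 10, 2 and 1 counts with dCas9-VP64 and 1 count in all with dCas9, the most of any gene with at most 1 dCas9 read. Its reads came mainly from dCas9-VP64 replicate 1. CALCR, the calcitonin receptor gene, and MIXL1, a homeobox gene, had 10 counts each against 1, and SAPCD1 and SMC5-DT had 9 each against 1. In the other direction PSMB8, an immunoproteasome subunit, had 9 counts with dCas9 and 1 with dCas9-VP64. HHATL and S100A2 had 8 counts against none and HCG26 had 7 against none.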

How the data were processed

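For each library the authors deposited raw counts of reads, in whole numbers, over 40709 RefSeq transcripts. The submitters' processing notes name hg19, and as tools DESeq2 1.6.2, R 3.1.2, SAMtools, Bowtie2 and CASAVA. What each tool did, how isoforms shared reads, strand and duplicate handling were not given in the sources used here. Transcripts were named by the RefSeq table (39324) or GENCODE (526), and 859, with 1.07% of the reads, kept their identifier. Counts were summed per gene. The naming tables rest on GRCh38 and gave names, gene order and the promoter windows, and no count.

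Groups were compared in edgeR 4.0.16 under R 4.3.3: TMM factors, filterByExpr (minimum count 10, minimum total 15), 1 quasi-likelihood fit of group means over the 12 libraries, two-sided tests, and Benjamini-Hochberg adjustment over the 14613 genes tested at a threshold of 0.05. An error printed with a log2 value is its standard error. For edgeR it was derived from the log2 value and the F statistic of the test, and the intervals of fold changes rest on it. At low counts edgeR can give a larger p than that error implies, so intervals of weak genes may be too narrow. Poisson intervals and floors of 3 counts cover counting error only, since no molecular identifiers are described. limma 3.58.1, DESeq2 1.42.0, Python 3.11.15, pandas 2.3.3, scipy 1.17.1 and matplotlib 3.10.9 were also used. Genes named are IL1RN, the 10 of smallest unadjusted p in each direction with all libraries and without dCas9 replicate 3, at most 4 tested members of each of 30 lists (584 genes) by that p, and at most 5 untested genes per direction. Some genes that the rule names are not reported here. The members, the lists and the rules were chosen with earlier results of these data known, and BCLAF1 and NIPBL-DT entered their lists that way. Alternatives changed the scaling, the tool, the filter, the libraries in the fit, the replicate block and the summing of transcripts. Another added offsets for length and GC. The rest left out in turn each dCas9 and dCas9-VP64 library, and each core library where core was compared. No dCas9-p300 D1399Y library was left out singly. The offsets used the 13778 tested genes (94.3%) with both values.

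No pair of libraries was counted as 1 sample, since the chi-square per gene between replicates was 3.74 or more for each pair of a group. Reads counted for more than 1 transcript would raise that value, and it does not show whether the replicates are separate cultures.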

Additional observations from a re-analysis of the deposited data

How the results depend on the processing

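IL1RN kept its direction in all 21 alternatives, which include each of its transcripts by itself, and passed the threshold in 5 of them. Its log2 fold change there was 1.90 with DESeq2, 1.91 without a filter (adjusted p = 0.0145, edgeR), 1.98 with offsets for length and GC content (adjusted p = 0.0162, edgeR), 1.89 with the replicate block (adjusted p = 0.0232, edgeR) and 2.15 without dCas9 replicate 3. Leaving out each dCas9 or dCas9-VP64 library in turn gave 1.64 to 2.15. In the same 5 alternatives 1 gene passed, and in the others 0. Against dCas9-VP64, the core value for IL1RN was 1.71 within pool CV41, and 1.61 to 1.96 as libraries were left out. The main fit did not pair the samples by replicate number. The deviations of same-numbered dCas9 and dCas9-VP64 libraries correlated at 0.467, 0.0313 and 0.23 over genes. Those of unlike-numbered libraries correlated at -0.348 to 0.117. Whether equal numbers mark libraries made together was not given in the sources used here. With the replicate block 953 genes had an unadjusted p under 0.05, against 449, and 163 did in a fit of the 6 compared libraries alone. Over single transcripts the number was 785. Of 81 other tested genes named, 0 passed in any alternative and 66 kept their sign in all. For 55 of the 81 the log2 value moved by over 1.5 times or changed sign when some 1 library was left out. limma-voom turned ITPR1 to 0.10, KAT6B to 0.075 and IL18BP to 0.62. The offsets turned FLT1 to -0.036, IL1RAP to -0.017, SIGIRR to 0.14, TTL to -0.26 and CHCHD5 to 0.081, and upper-quartile factors turned PSD4 to -0.026. Leaving out single libraries gave these ranges of log2 fold change: FLT1 -0.20 to 0.35, DCHS1 -0.64 to 0.0023, SVIL -0.61 to 0.015, ITPR1 -0.57 to 0.23, KAT6B -0.43 to 0.22, TP53I3 -0.27 to 1.18, PRKAR1B -0.034 to 1.20, IL18BP -0.62 to 0.27, IL1RAP -0.33 to 0.50, IL18R1 -0.046 to 0.42, SIGIRR -0.29 to 0.21, PSD4 -0.45 to 0.57, CHCHD5 -0.29 to 0.027 and EP300 -0.040 to 0.57. The cause was not tested. The medians of 14 of the 30 lists moved by over 1 SD of the libraries in at least 1 alternative. Depth limits the weakest genes most, since dCas9 replicate 3 allows up to 1.11 CPM at a count of 0.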
